A study of Mus musculus with 12 samples.

Results

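FRA-1 binding in peritoneal macrophages given apoptotic cells was compared with that in unstimulated macrophages by chromatin immunoprecipitation followed by sequencing (ChIP-seq), using 6 of the 12 samples of the study, 3 per condition. The mice were 8 weeks old. The sample records give a 129/C57Bl6 background and macrophages elicited with thioglycollate 72 h before harvest, whereas the design text gives C57Bl/6 mice and mentions lavage only. In both conditions the adherent cells were kept overnight. The apoptotic cell group then was exposed to apoptotic cells (ratio 1:5) during 1 h, and the unstimulated group received none. Precipitation with an antibody against FRA-1 followed in both conditions. Adherent peritoneal cells can hold other cells than macrophages. The origin of the apoptotic cells is not given in the sources used here, and if they were of mouse origin their DNA cannot be told apart from that of the macrophages. The sample records name 3 mice, each in every condition, while the design text counts separate animals for each condition, so it is not settled whether the replicates are animals that differ between conditions. The 3 LPS samples (1 h of LPS, with a dose that differs between the sample records and the design text) served as a description, and the 3 pooled inputs were not used here.

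FRA-1, the product of Fosl1, is a member of the FOS family and has no strong activation domain of its own. It pairs with a JUN protein to form the AP-1 dimer, which recognises the palindrome TGACTCA (or TGAGTCA). Macrophages clear apoptotic cells by efferocytosis: receptors and bridging molecules bind the dying cell, the actin cytoskeleton forms a phagosome, and the lipids and amino acids of the cargo are then handled, while inflammatory genes are usually held down.

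A peak is a stretch of the genome in which precipitated fragments pile up above background. Each peak has a score in the form of a Phred-scaled p-value, which is higher for a smaller p. The tables hold no read counts, so sequencing depth is unknown and a position without a peak had no binding detectable at the threshold of the authors. Apoptotic cell replicates are written AC1 to AC3 and unstimulated replicates UT1 to UT3, in the order of the table columns, which name no mouse. Touching or overlapping segments of both tables were merged into 198386 regions. The members are the regions, and the genes of the deposited gene column, seen in at least 2 replicates of one condition and in 0 of the other (2336 regions with apoptotic cells and 417 without stimulation).

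The promoter sequences that the data touch are shown first, because the FRA-1 motif is known and can be looked for there. Promoter windows of 300 bases (250 before to 50 after the transcription start) were taken from RefSeq, GRCm38.p6. Of 49 AP-1 sites in promoters that any peak of the 6 replicates touched, counted per window, 14 were themselves overlapped by a peak by at least 1 bp. Each of the 14 was overlapped in 1 replicate only, 8 of them with apoptotic cells and 6 without stimulation, and LPS replicates had a peak over 0 of them. Apoptotic cell peaks touched 718 promoter windows, 33 of them with an AP-1 site. Unstimulated peaks touched 299, 15 of them with such a site. As examples, 5 of the 14 sites are given, chosen after their values were seen and not in proportion to the conditions, with the motif in capitals, 5′ to 3′ on the strand of the gene.
Tnfaip3 (chr10:19015528-19015557, minus strand, under a peak of AC3 with a score of 106.47): aaatgcccaggTGACTCAcgcggggacacc
Dhx32 (chr7:133782873-133782902, minus strand, AC3, 94.15): cctgaattcacTGACTCAttcttggcttcc
Zfp329 (chr7:12819030-12819059, minus strand, AC1, 91.25): atgaatatccaTGAGTCAtcagtaacttag
Slc51b (chr9:65422987-65423016, minus strand, UT2, 150.95): ctttcgggttgTGAGTCAagtggagtcagt
Sprr2i (chr3:92407787-92407816, plus strand, UT2, 103.05): gaagggctcacTGAGTCAcaggactgaaca
Tnfaip3 encodes A20, a ubiquitin-editing enzyme that restrains NF-κB, and its site began 136 bases before the transcription start. The edge of the AC3 peak fell within this site, so that only part of it was overlapped. The promoter of Il6, an inflammatory cytokine, also holds an AP-1 site at the edge of its window, and neither condition had a peak there.
Il6 (chr5:30012864-30012883, plus strand, 0 of 6 replicates): cTGAGTCActtttaaagaaa

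The few promoters with a replicated difference carried no AP-1 site, and neither did those of regions replicated on both sides. Regions of at least 2 apoptotic cell and 0 unstimulated replicates touched 14 promoter windows, the reverse regions touched 1, and regions of at least 2 replicates on both sides touched 11. The letters TGACTCA or TGAGTCA were found in 0 of these windows, against 5.20% of all 32851 windows. At this share, so few windows may hold none. Of the 14 windows, 7 held GAGGAA, the core of sites for the macrophage factor PU.1 (28.3% of all windows), 3 held TTGCNNAA, written for C/EBP (10.8% of all), and 0 held the E-box CACGTG (7.15% of all), each on either strand. Letters were counted anywhere in a window, not only under the region. In the Cd59a window below, GAGGAA lay outside the region. The windows of the predicted gene Gm39603 overlap each other and share a region. No test was made on so few windows. The window of Cd59a, an inhibitor of the complement attack complex, is shown as an example, with the bases under the region in capitals. AC1 (163.8) and AC2 (75.04) had a peak there, and AC3, the unstimulated and the LPS replicates had none.
Cd59a (chr2:104095551-104095850, plus strand): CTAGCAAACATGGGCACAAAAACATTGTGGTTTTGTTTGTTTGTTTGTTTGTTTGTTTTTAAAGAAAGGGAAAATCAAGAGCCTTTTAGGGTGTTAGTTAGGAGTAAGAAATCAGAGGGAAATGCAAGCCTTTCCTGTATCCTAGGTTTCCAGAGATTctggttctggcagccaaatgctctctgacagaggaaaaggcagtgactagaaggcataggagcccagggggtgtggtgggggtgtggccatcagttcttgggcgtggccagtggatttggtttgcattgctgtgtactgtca
The window of Runx3, a transcription factor of the RUNX family, lay under a region shared by both conditions. Its scores were 116.66, 133.78 and 172.39 in AC1 to AC3, 162.3 in UT1 and 150.97 in UT3, with no peak in UT2.
Runx3 (chr4:135120395-135120694, plus strand): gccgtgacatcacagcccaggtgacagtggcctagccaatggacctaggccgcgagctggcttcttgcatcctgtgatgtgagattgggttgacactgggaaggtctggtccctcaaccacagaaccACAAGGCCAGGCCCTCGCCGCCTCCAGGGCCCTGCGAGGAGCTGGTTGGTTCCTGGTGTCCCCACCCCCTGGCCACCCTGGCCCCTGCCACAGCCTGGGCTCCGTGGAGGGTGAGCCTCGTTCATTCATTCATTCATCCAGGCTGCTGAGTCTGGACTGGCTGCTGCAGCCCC

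Macrophages given apoptotic cells had more FRA-1 peaks than unstimulated macrophages in every replicate. The peak numbers were 40821, 31501 and 79474 in AC1 to AC3, and 25334, 20981 and 28314 in UT1 to UT3. The 2 groups did not overlap, but AC3 alone lay far above the others. The means were 50599 ± 25437 and 24876 ± 3688 (SD, n = 3 each), a ratio of 2.03 (two-sided exact permutation p = 0.1, and groups of 3 cannot give a smaller one). Without AC3 the ratio was 1.45. With peaks of a score of at least 100 only, the groups still did not overlap and the ratio was 1.63 (two-sided exact permutation p = 0.1).
Peaks reached down to a width of 104 bp in AC3 and 116 bp in UT3, against 158 to 172 bp in the other 4 replicates. Between the 2 narrow replicates the peak numbers were 79474 against 28314, and among the 4 wide ones 40821 and 31501 against 25334 and 20981, so that the direction was the same within each class. The part of the width class in the peak numbers was not tested.

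**Figure D1:**
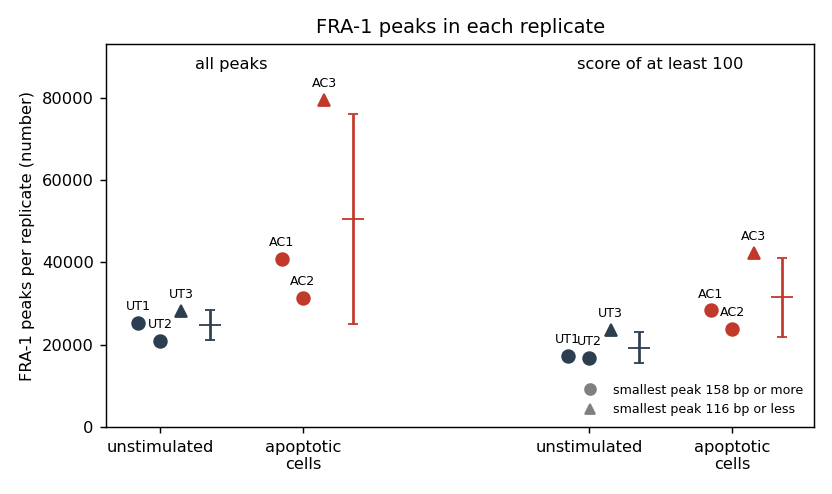
Number of FRA-1 peaks (y axis) in each unstimulated (UT, dark) and apoptotic cell (AC, red) replicate, for all peaks on the left and for peaks with a score of at least 100 on the right. Circles mark replicates whose smallest peak was 158 bp or wider, triangles those of 116 bp or less, and the bars give the mean and SD of 3 replicates. Every AC replicate lies above every UT replicate, and AC3 with 79474 peaks stands apart.

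In the place of their peaks in the genome, the replicates of the conditions overlapped. The share of peaks centred within 1000 bp of a RefSeq transcription start was 1.999, 2.02 and 2.03% in AC1 to AC3 and 2.02, 1.89 and 1.98% in UT1 to UT3. Of the listed chromosome length, 2.05% lies within this distance, so that peaks were not more frequent at starts than elsewhere in either condition. Gene bodies held 49.1 ± 1.31% of the peaks with apoptotic cells and 49.1 ± 0.51% without stimulation (SD, n = 3 each), where 45.8% of the chromosome length lies inside genes. Among the promoters that a peak touched, an AP-1 site was found in 4.91, 2.86 and 4.90% in AC1 to AC3 and in 3.64, 7.95 and 3.51% in UT1 to UT3, around the 5.20% of all windows. Of 6 features compared, including median width and median score, the adjusted p-values were 0.6 to 1 (exact permutation test, two-sided, Benjamini-Hochberg over the 6). With 3 against 3 replicates this permutation test cannot give an unadjusted p below 0.1. No feature could thus have been called different, and no conclusion is drawn from these p-values. The median score was lower with apoptotic cells, 123 ± 14.7 against 144 ± 5.93 (SD, n = 3 each, exact permutation test, two-sided, p = 0.1). It was higher by 21.3 when the 20981 highest-scoring peaks of each replicate were taken. This cut removes more low scores from a replicate with more peaks, as all apoptotic cell replicates had, so the change of sign cannot be read as a difference.

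Most FRA-1 regions were seen in a single replicate, 127321 with apoptotic cells and 58694 without. At least 2 apoptotic cell and 0 unstimulated replicates had a peak in 2336 regions (1.18% of all 198386), and a peak in 0 apoptotic cell and at least 2 unstimulated replicates in 417 (0.210%). Put differently, 28.2% of the 8274 regions seen in at least 2 apoptotic cell replicates had no unstimulated peak (95% Wilson interval 27.3 to 29.2%), and 10.002% of the 4169 regions seen in at least 2 unstimulated replicates had no apoptotic cell peak (9.13 to 10.95%). These intervals cover counting error only, and this comparison of shares was added after seeing the data. With 3 against 0 replicates there were 324 regions (0.163%) with apoptotic cells and 12 (0.00605%) without stimulation. No single region can pass a test in this design, since Fisher's exact test (two-sided) gives p = 0.1 for 3 against 0 and p = 0.4 for 2 against 0.
The regions with apoptotic cells only did not rest on a single pair of replicates. AC1 and AC3 without AC2 made up 857 of them, AC2 and AC3 made up 586, AC1 and AC2 made up 569, and all 3 replicates 324. In reverse, UT1 and UT3 made up 153, UT2 and UT3 147, UT1 and UT2 105, and all 3 replicates 12.

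**Figure D2:**
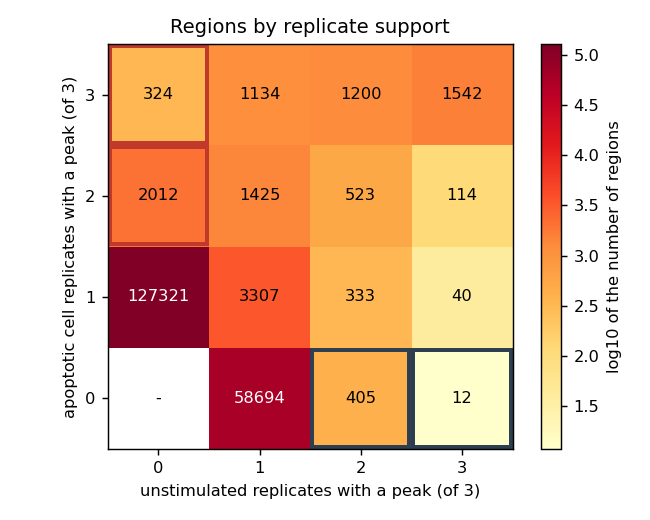
Number of regions by how many of 3 apoptotic cell replicates (y axis) and how many of 3 unstimulated replicates (x axis) had a peak, coloured by log10 of the number. Red frames mark the 2336 regions of at least 2 apoptotic cell and 0 unstimulated replicates, dark frames the 417 of the reverse.

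The surplus of apoptotic cell regions shrank but kept its direction when each replicate contributed the same number of peaks. With the 20981 highest-scoring peaks of each replicate, 855 regions had at least 2 apoptotic cell and 0 unstimulated replicates and 467 the reverse. This kept all peaks of UT2, but only part of the 28314 of UT3 and the 79474 of AC3. The cut was thus stricter for the apoptotic cell replicates, and its part in these numbers was not tested. Without AC3, where both remaining apoptotic cell replicates are required, the numbers were 893 and 550, without AC1 910 and 583, and without AC2 1181 and 491. Leaving out UT3 raised it to 4603 against 117, more than leaving out UT1 (2483 against 159) or UT2 (2481 against 165). Among the 4 replicates of larger smallest width, 2398 regions had both AC1 and AC2 and neither UT1 nor UT2, and 145 the reverse.

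**Figure D3:**
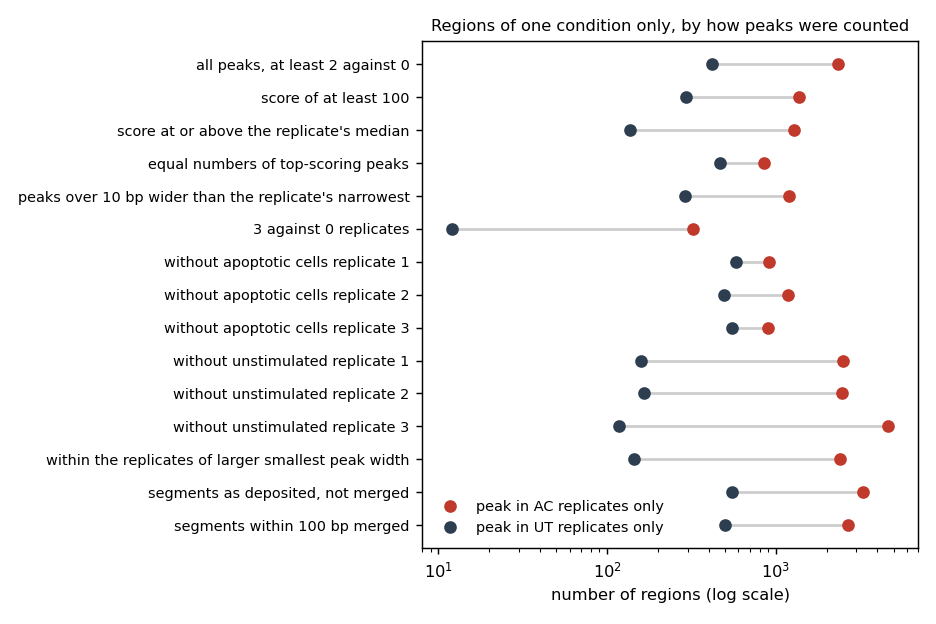
Number of regions (x axis, log scale) of at least 2 apoptotic cell (AC) and 0 unstimulated (UT) replicates (red) and of the reverse (dark), for each way of counting peaks (y axis). The red point lies to the right of the dark point in each way tried, and the points come closest without AC1 (910 and 583), without AC3 (893 and 550) and with equal peak numbers (855 and 467).

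Peaks in the apoptotic cell regions were narrow and had recurrent scores. In the 324 regions with 3 against 0 replicates, 82.7% of the AC1 peaks, 75.9% of the AC2 peaks and 68.1% of the AC3 peaks were within 10 bp of the smallest width of their replicate, against 31.8, 31.1 and 15.3% of all peaks of these replicates. The same held for the 1542 regions that had a peak in all 6 replicates, with 67.8, 68.8 and 56.7%. Median scores in the 324 regions were 129.52, 133.78 and 146.98, and the first 2 of these are also the most frequent scores of AC1 and AC2, given to 14.4% of the peaks of each. With peaks wider than this margin only, chosen as an alternative after seeing the data, 1190 regions were left with apoptotic cells and 289 without stimulation. What the narrow peaks contribute was not tested.

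Of the regions with 3 against 0 replicates, the one with the highest lowest score lay on chromosome 5, from 5500718 to 5500889, with scores of 299.8, 308.35 and 242.95 in AC1 to AC3, between genes and 13986 bp from the start of Cldn12, a claudin of cell junctions. The second, on chromosome 12 from 76846780 to 76846951, scored 254.79, 262.27 and 222.68 and lay 9398 bp downstream of the start of Fntb, the beta subunit of protein farnesyltransferase. Neither has a gene in the deposited column. Of the 324 regions, 2.47% were centred within 1000 bp of a start and 15.7% within 5000 bp, against 2.003% and 10.1% of all regions.

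The deposited gene column names a gene for 22 of these 324 regions, and the 15 with the highest lowest score over AC1 to AC3 are described by what their genes do. Arf2, a small GTPase of vesicle traffic, led them with 200.83, 228.36 and 205.88, in a region on chromosome 11 from 103964736 to 103964922, 1896 bp upstream of its start. Sufu, which restrains Hedgehog signalling, had 211.84, 175.18 and 165.47, in a region on chromosome 19 from 46392507 to 46392687.
A group of 3 genes acts in RNA handling, translation and protein breakdown. Eif1, a translation initiation factor that takes part in start codon choice, had 124.69, 254.19 and 165.66, 965 bp upstream of its start (chromosome 11, 100318900 to 100319069). Psmd11, a subunit of the regulatory particle of the proteasome, had 129.52, 133.78 and 111.27, 1326 bp upstream (chromosome 11, 80427206 to 80427372). These are the most frequent scores of AC1, AC2 and AC3. Hnrnpa3, an RNA-binding protein, had 184.58, 123.34 and 205.88 (chromosome 2, 75656406 to 75656910).
Necab3, a calcium-binding protein, had 211.84, 133.78 and 184.35, inside a gene and 3708 bp upstream of its listed start (chromosome 2, 154562478 to 154562647). Susd5 had 211.84, 218.24 and 146.98, and C77080 had 186.27, 262.7 and 283.45, the latter with AC3 highest. The others were 2700029M09Rik, 5430402O13Rik, 7420426K07Rik, Gm4925, Gm5935, Gm13830 and a region on chromosome X that is assigned to 10 near-identical predicted genes, Gm10147 among them. Peaks of such copies cannot be told apart, and the last region is uncertain.
2700029M09Rik, Hpf1 in RefSeq at the nearest start, also had a peak of 1 unstimulated replicate elsewhere, and the 10 predicted genes on chromosome X had assigned peaks of 2 unstimulated replicates at other copies, so that these genes as a whole did not have 3 against 0 replicates. When each peak was instead given to the nearest RefSeq gene within 5000 bp, Sufu, Susd5, Psmd11, Necab3, Gm4925, Gm5935 and Gm13830 no longer had at least 2 against 0 replicates. The difference in replicates was then 0 for Sufu, Susd5 and Psmd11 and -1 for Necab3. Only peaks beyond the 10 bp width margin were also tried, with the deposited column. The difference was then 0 for Susd5, Psmd11, Necab3, Gm4925, Gm13830, 5430402O13Rik and 7420426K07Rik. It was 1 for Sufu, C77080, Eif1 and Gm5935, and 2 for Arf2 and Hnrnpa3. Entpd1 ranked below the 15 and is named here because of its function, after its values were seen. It encodes CD39, which breaks down extracellular ATP, a signal that dying cells release. Its scores were 115.69, 76.96 and 163.65, in a region from 40659112 to 40659526 on chromosome 19, centred 451 bp upstream of a start of the gene. LPS replicates 1 and 3 had 308.11 and 403.71 there.

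Of the 12 regions with 0 against 3 replicates, 0 have a gene in the deposited column, and 4 lie on chromosome 15. The one with the highest lowest score, on chromosome 10 from 32505755 to 32505937, had 184.14, 150.95 and 220.21 in UT1 to UT3 and lay 384069 bp downstream of the nearest start, that of Nkain2.

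At gene level the difference depended on the peak number. The deposited column assigns a peak of either condition to 8706 gene symbols, of which 8666 were found in RefSeq. Of these, 482 genes (5.54%) had assigned peaks in at least 2 apoptotic cell and 0 unstimulated replicates, and 111 (1.27%) had the reverse. With equal peak numbers these became 118 and 126, and without AC3 101 and 146, so that more genes were then found without stimulation. Of the 482 genes, 135 (28.0%) had peaks of at least 2 replicates in the same region, and of the 111 genes 17 (15.3%), while in the others the replicates had their peaks at different positions. With 3 against 0 replicates there were 34 genes with apoptotic cells, 19 of them with all 3 replicates in a common region, and 10 with every replicate at a different position. Among these 10 were Atp6v1c1, a subunit of the proton pump that acidifies phagosomes and lysosomes (113.77, 155.42 and 160.65), and Efnb2, the ligand ephrin-B2 (149.46, 113.81 and 68.39), both named after their values were seen. In reverse there were 4 genes, namely Ctbp2 and Rcor3, which are part of transcriptional corepressor complexes, Dpt, a protein of the extracellular matrix, and Pqlc3. Dpt had 140.93, 150.95 and 196.7 in UT1 to UT3. None of the 4 had all 3 replicates in a common region.

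Genes for the handling of apoptotic cells were looked up by list. Of 33 apoptotic cell receptors and bridging molecules, 15 had an assigned peak, 0 of them in at least 2 against 0 replicates in either direction, beside 5.54% and 1.27% of all assigned genes. Axl and Gas6, a receptor and its bridging ligand, had a peak in AC3 (72.59) and UT1 (99.78) and in AC2 (133.78), respectively. Lrp1, a receptor that recognises calreticulin on dying cells, had a peak in all 6 replicates in a single region 1585 bp upstream of its start (chromosome 10, 127622647 to 127622819). Its scores were 255.22, 262.7 and 184.35 with apoptotic cells and 140.93, 292.85 and 244.1 without, and these overlap.

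In the engulfment and actin remodelling list, 15 of 33 genes had an assigned peak, 2 of them (13.3%, against 5.54% of all assigned genes) in at least 2 apoptotic cell and 0 unstimulated replicates and 0 in reverse. Rac1, the GTPase that drives actin polymerisation at the phagocytic cup, had peaks in AC1 (129.52) and AC2 (133.78), in neighbouring regions 4434 and 4688 bp outside the gene on chromosome 5. Map1lc3b, which encodes LC3B of autophagy and of LC3-associated phagocytosis, had a common region of AC1 (129.52) and AC3 (128.9), 1697 bp upstream of its start (chromosome 8, 121588634 to 121588848). It was the only gene of the 9 lists with 2 apoptotic cell and 0 unstimulated replicates in a common region. LPS replicates 1 and 3 had 222.56 and 189.7 there. Rhoa, a GTPase that opposes uptake, had peaks inside the gene in AC1 to AC3 (193.04, 194.5 and 165.66), UT1 (88.8) and UT3 (225.22).

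Of 26 anti-inflammatory mediators, 11 had an assigned peak, 2 of them (18.2%, against 5.54% of all assigned genes) in at least 2 apoptotic cell and 0 unstimulated replicates and 0 in reverse. With the nearest RefSeq gene instead, both of these and Rac1 no longer had 2 against 0. Tnfaip3 had a peak in AC1 (139.46), 1 in AC3 inside the gene (297.89), and another in AC3 over part of the promoter site shown above. These lay in 3 regions, so that no position was shared by 2 replicates. Ptges, the prostaglandin E synthase, had a peak in AC2 (154.25) and AC3 (146.98) in neighbouring regions inside the gene. Of 34 inflammatory cytokines and chemokines, 12 had an assigned peak and 1 gene (8.33%, against the same 5.54%), Il12a, a subunit of IL-12, had 2 against 0 replicates, AC1 (149.46) and AC3 (146.98), at different positions upstream of the gene. Il23a had peaks in AC2 (125.66), UT1 (140.93) and UT3 (186.51).

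AP-1 genes were looked up in the same way. Of 22 members, 11 had an assigned peak, 0 of them in at least 2 apoptotic cell and 0 unstimulated replicates and 1, Mafk, in reverse (5.54% and 1.27% over all assigned genes). Of the others, 6 had a peak in AC3 alone, among them Fos (98.23) and Fosl1, which encodes FRA-1 (87.92). AC3 has the most peaks, and such peaks are common. It gave 55.8% of all regions seen in 1 apoptotic cell and 0 unstimulated replicates. Mafk, a small MAF protein without an activation domain, had peaks in UT1 (57.03) and UT2 (128.83) at different positions inside the gene, and not 2 against 0 with the nearest RefSeq gene. Junb, a dimer partner of FRA-1, had scores of 211.84, 175.18 and 242.95 in AC1 to AC3 and 196.7 in UT3, in a single region 4611 bp upstream of its start (chromosome 8, 84983274 to 84983444). UT1 and UT2 had no peak there.

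Of the lipid handling and nuclear receptor list, 11 of 30 genes had an assigned peak, and 0 in at least 2 against 0 replicates. The arginine and polyamine list had an assigned peak in 6 of 20 genes and 0 such differences. Arg1, which splits arginine into ornithine and urea, had an assigned peak in AC3 alone (89.97), 3819 bp outside the gene on chromosome 10, and a further, unassigned peak of AC2 (133.78) lay beyond its other end. In Il6, AC1 had 2 peaks (84.61 and 77.26) that the deposited column does not assign to it. Lcn2, which encodes the iron-scavenging protein NGAL, had a peak of UT1 inside the gene (229.0) and 1 assigned peak of UT1 outside it (99.78), and AC3 had a peak near it (80.54). Each of these peaks was seen in 1 replicate, so that no replicated position differed between the conditions at Arg1, Il6 or Lcn2. Counting the unassigned peak, Arg1 had peaks near it in AC2 and AC3, at different positions, and in no unstimulated replicate.

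Genes of macrophage identity had an assigned peak in 9 of 28 cases and 0 replicated differences. Csf1r, the receptor for macrophage colony-stimulating factor (131.45), Cd14 (64.05) and Lyz2 (99.58) had 1 in AC3 only, the replicate with the most peaks. Of 30 genes of other cell types, 8 had an assigned peak. In at least 2 apoptotic cell and 0 unstimulated replicates there was 1 of them (12.5%, against 5.54% of all assigned genes), and 0 in reverse. Pecam1, an adhesion molecule of endothelial cells and leukocytes, had a peak in all 6 replicates, with 184.36, 149.94 and 150.79 in AC1 to AC3 and 123.62, 92.78 and 240.48 in UT1 to UT3, and the groups overlap. With equal peak numbers, Map1lc3b and Mafk no longer had 2 against 0 replicates, while Rac1, Tnfaip3, Ptges and Il12a did. FRA-1 peaks do not measure expression, so that they give no check of the cell type. Over all 8706 assigned genes, the median difference between the numbers of apoptotic cell and unstimulated replicates with a peak was 1, and it was 0 or 1 in every list. The mean numbers of replicates were 0.905 and 0.485 over all genes, 1.07 and 0.4 for engulfment, 1 and 0.364 for anti-inflammatory mediators, and 0.727 and 0.818 for lipid handling.

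**Figure D4:**
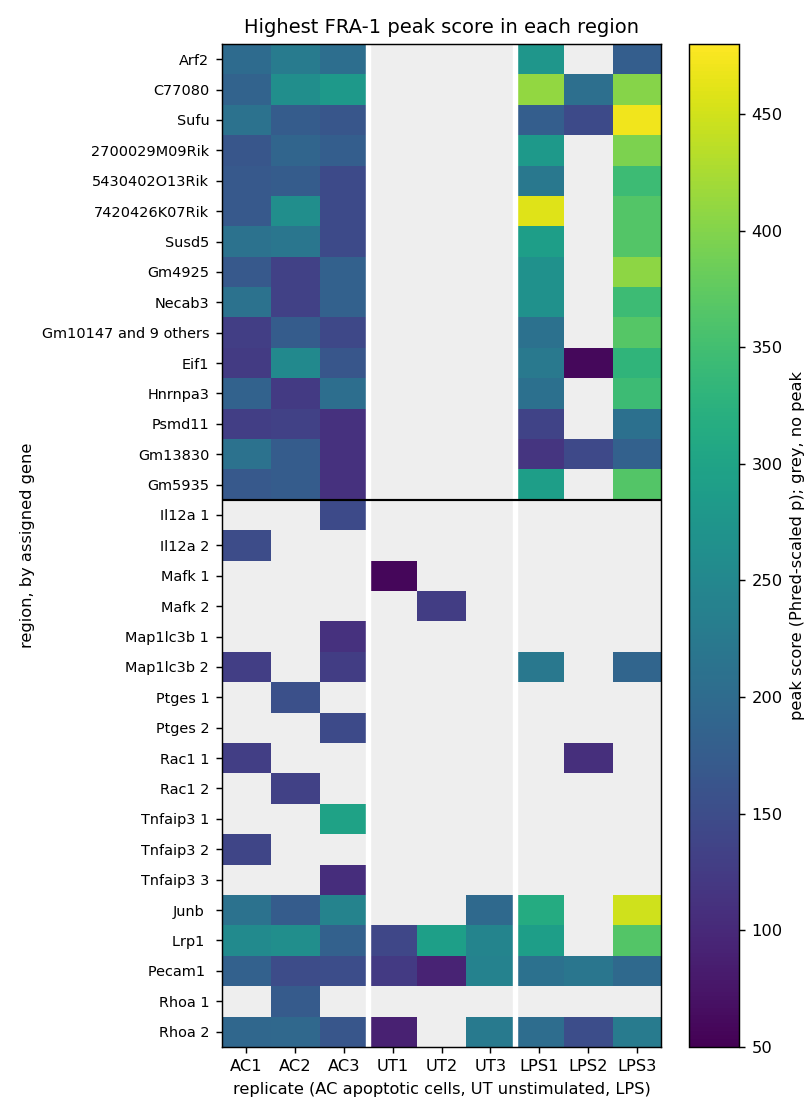
Highest FRA-1 peak score (colour) in each replicate (x axis; AC apoptotic cells, UT unstimulated) in the 15 leading gene-assigned regions with 3 against 0 replicates (above the line) and of selected list genes (below it, numbered where a gene has several regions). Grey means no peak. Above the line, LPS replicates 1 and 3 have a peak in every region, and below it most regions of the genes with 2 against 0 replicates hold a peak of a single apoptotic cell or unstimulated replicate.

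Most regions replicated with apoptotic cells also had a peak after LPS, in LPS replicates 1 and 3. A peak of LPS replicate 1 overlapped 58.05% of the 2336 regions, of replicate 2 10.6% and of replicate 3 64.2%. In the 324 regions with 3 against 0 replicates these shares were 95.7, 24.1 and 98.5%. The regions with a peak in a single apoptotic cell replicate and no unstimulated one had 2.58, 0.849 and 4.11%. Of the 417 regions in the reverse direction, 34.3, 5.52 and 40.8% were overlapped, and of the regions bound in all 6 replicates 99.9, 89.1 and 99.7%. The 12 regions with 0 against 3 replicates also had high shares in LPS replicates 1 and 3, with 83.3, 25 and 75%. LPS replicates 1 and 3 share the small smallest width (108 and 104 bp) with AC3 and UT3, and have more peaks (46007 and 63010) than replicate 2 (39728, smallest width 168 bp). The part of peak number and width in these shares was not tested. At the 15 leading gene-assigned regions with 3 against 0 replicates, LPS replicates 1 and 3 had a peak in all 15, and replicate 2 in those of C77080, Sufu, Eif1 and Gm13830.

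**Figure D5:**
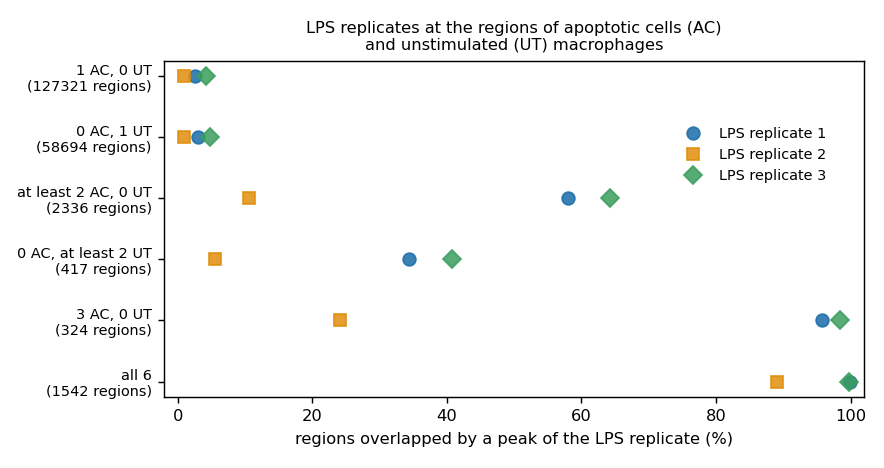
Share of regions (x axis, %) overlapped by at least 1 bp by a peak of each LPS replicate, for regions grouped by the number of apoptotic cell (AC) and unstimulated (UT) replicates with a peak (y axis, with the number of regions). Regions seen in 1 replicate lie below 5%, and those with 3 AC and 0 UT replicates reach 95.7 and 98.5% for LPS replicates 1 and 3 against 24.1% for replicate 2.

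Where all 6 replicates had a FRA-1 peak, the scores did not differ detectably. Over these 1542 regions the median scores were 282, 262 and 243 in AC1 to AC3 and 184, 197 and 331 in UT1 to UT3, and the groups overlap because of UT3. After centring each replicate on its median, 0 regions were higher and 0 lower with apoptotic cells (limma on log2 score, Benjamini-Hochberg adjusted p under 0.05, 0% called). The smallest adjusted p was 0.182, and at an unadjusted p under 0.05 there were 26 higher and 104 lower regions. The log2 differences, apoptotic cells minus unstimulated, ran from -1.37 to 1.76, with a median SE of 0.28. On simulated scores, a log2 difference of 2 was found in 51 of 66 regions and a difference of 1 in 15 of 67. The simulated spread was taken before centring, so it includes differences in level between replicates that the fit removes. These numbers therefore do not settle how small a difference the fit could find, and small differences may have been missed.
The largest rise, 1.76 ± 0.36 (SE, limma adjusted p = 0.182), lay on chromosome 17 from 13550623 to 13553269, where the scores were 289.31, 119.45 and 304.9 with apoptotic cells and 60.88, 53.41 and 56.15 without, and the groups did not overlap. A drop of -1.30 ± 0.27 (limma adjusted p = 0.182) was measured on chromosome 14 from 104336815 to 104337143, with 274.5, 456.76 and 349.93 against 606.7, 630.67 and 1153.21. Behind these, several regions were tied at a limma adjusted p of 0.354, among them those assigned to Ecd (-0.99 ± 0.28) and Timm17b (0.88 ± 0.25). Without AC3, 15 regions were lower and 0 higher, without AC1 1 was lower, and without AC2 1 was higher.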

How the data were processed

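FRA-1 ChIP-seq of 3 apoptotic cell and 3 unstimulated replicates was analyzed. The submitters' processing notes name BWA 0.7.14, bedtools and GRCm38 (mm10), and the peak caller is not given in the sources used here. The authors deposited 1 table per condition with a peak score per replicate (columns 5 to 7, -1 for no peak, lowest 50.01), called per replicate and not normalized. Depth is unknown. A gene column was used as deposited, and the columns with the number of replicates and the score sum were not used.
Repeated rows were dropped (12393 and 5799), leaving 159587 and 78475 segments. Adjoining segments of equal score were joined into peaks, and touching segments of both tables were merged into regions. Overlap meant at least 1 bp. Starts, gene bounds and promoters came from RefSeq (GRCm38.p6). Replicate values were compared by exact permutation tests and log2 scores with limma 3.58.1 (R 4.3.3). Both steps were tested on simulated data. As score columns carry no mouse label, replicates were treated as unpaired, and p-values measure the spread between these samples only.
Genes were named by rule: the 15 leading regions with 3 against 0 replicates, up to 10 of the reverse, list members with at least 2 against 0, Arg1, Il6 and Lcn2, the 10 smallest adjusted p-values and the highest regions in all 6 replicates. Members and lists were chosen with earlier results of these data known. Results for some named genes and sequences are not reported here.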

Additional observations from a re-analysis of the deposited data

How the results depend on the processing

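Numbers of regions and genes are given as at least 2 apoptotic cell against 0 unstimulated replicates, then the reverse (2336 and 417 regions, 482 and 111 genes). Regions were 1372 and 293 with a score of at least 100, 1287 and 137 at or above the median score of each replicate, 855 and 467 with equal peak numbers, 1190 and 289 with wider peaks only (added after seeing the data), 324 and 12 with 3 against 0, 2398 and 145 within the wide class, and 893 to 4603 and 117 to 583 with 1 replicate left out. Genes were 247 and 87, 184 and 30, 118 and 126, 356 and 89, 34 and 4, 209 and 49, and 101 to 691 and 38 to 146 under the same settings in the same order. With the nearest RefSeq gene within 5000 bp they were 3106 and 473, or 10.5 and 1.59% of 29720 genes. The main numbers were 5.54 and 1.27% of 8706 genes. Merging segments within 100 bp, or not at all, left the region numbers within 1.5 times. The difference in median score went from -20.8 to 21.3, and that in the share of assigned peaks from -0.173 to -0.00477 percentage points, with equal peak numbers, which keeps only the highest scores of each replicate. The peak ratio ran from 1.45 to 2.42 with 1 replicate left out. Regions called in all 6 replicates were 0 to 1 higher and 0 to 15 lower with 1 replicate left out, and 0 under the other normalizations and the mean score. No paired analysis was possible because nothing ties a table column to a mouse. Motifs outside promoters were not searched, as no genome sequence was used here. Of the calls of 23 named genes, without the 10 copies on chromosome X, 123 kept their side of the threshold with 1 replicate left out, 14 were lost and 1 was gained. With equal peak numbers these were 19, 3 and 1, with the nearest RefSeq gene 12, 10 and 0 (besides Necab3, which turned from 3 to -1), and with wider peaks only 11, 12 and 0.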

Other observations

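The highest scores were shared by both conditions and belonged to no gene of the deposited column. Regions on chromosome 14 (19415617 to 19419832), chromosome 2 (98662113 to 98663115 and 98666053 to 98667455) and chromosome 9 (2999913 to 3038524) had a score of 3100 in all 6 replicates, the highest value that most replicates reach, and a further one on chromosome 9 (35305108 to 35305722) had 3100 in 5 replicates and 3188.85 in AC3. Differences at these regions cannot be read, since the scores are at their ceiling. The largest of them was 38612 bp long.

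On chromosome Y, 39 of 1370 regions (2.85%) had a peak in at least 2 apoptotic cell and 0 unstimulated replicates and 2 (0.146%) the reverse. On the other chromosomes the first share ran from 0.964% on chromosome 7 to 1.48% on chromosome 19. The share of all peaks on chromosome Y was 0.875, 0.981 and 0.612% in AC1 to AC3 and 0.857, 0.929 and 1.15% in UT1 to UT3. The sex of the mice per replicate is not given in the labels, and repeated copies on this chromosome were not examined.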
